A study of Mus musculus with 14 samples.

Results

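Krt7, Krt8, Krt18 and Krt19, the simple epithelial keratins, were measured by microarray in mouse blastocysts at embryonic day E4.0. The genes were chosen by name, from the gene names the array files give to each probe, and make up 4 of the 27962 genes named on the array, with 6 of its 41174 gene probes. Krt7 and Krt8 had 2 probes each, Krt18 and Krt19 had 1 probe each, and all 6 probes passed the filter on low signal.

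The series held 14 arrays. Fusion clones (n = 4) came from somatic cell nuclear transfer (SCNT), in which the nucleus of a body cell is placed in an enucleated oocyte, with the cumulus donor cell joined to the oocyte by cell fusion. Injection clones (n = 4) received the nucleus of a cumulus cell by injection. The controls were female (n = 3) and male (n = 3) embryos from in vitro fertilization (IVF). The labels give all 8 clones as female. Nuclear donors, per the methods, were mice heterozygous for an Xist knockout on a BDF1 background (the F1 cross of C57BL/6N with DBA/2), and recipient oocytes were BDF1. The labels do not state the Xist genotype of these blastocyst clones. The study calls the IVF controls of its postimplantation embryos genotype- and sex-matched. Its methods name BDF1 embryos from IVF as controls without giving their Xist genotype. All embryos were cultured in KSOM medium, and their RNA went through an amplification of 2 rounds before labelling. The extraction notes speak of single embryos for dissected tissue and do not say whether each blastocyst array holds 1 embryo, so a clone or embryo named by its number below is an array. The labels do not say whether the arrays of a group came from separate oocyte collections, so p-values measure only the spread between these arrays, which may be technical.

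Keratins are the intermediate filament proteins of epithelia. A type I keratin (Krt18, Krt19) pairs with a type II keratin (Krt7, Krt8) to build a filament, and Krt8 with Krt18 is the first pair that a mouse embryo makes. In the blastocyst these filaments lie in the trophectoderm, the outer epithelium that forms the placenta. Loss of both Krt18 and Krt19 is known to make mouse trophoblast cells fragile.

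The sequences before the start sites of the type II genes and of Krt18 are shown because Krt7, described below, had a larger difference and a wider spread between arrays than Krt8 and Krt18. Each run holds the 250 bases before the start, 5′ to 3′ on the gene's strand, from RefSeq on GRCm38.p6, and 3 of the 4 keratins had an entry (Krt19 did not). Krt7 lies at chr15:101412153-101412402 on the + strand, Krt8 at chr15:102004343-102004592 on the - strand and Krt18 at chr15:102027966-102028215 on the + strand. Capitals mark matches, on either strand, to 6 motifs: the TATA box (letters TATAAA), the AP-1 motif (letters TGANTCA), the Tead motif (letters CATTCC), the Gata motif (letters AGATAA), the AP-2 motif (letters GCCNNNGGC) and the GC box (letters GGGCGG).
Krt7: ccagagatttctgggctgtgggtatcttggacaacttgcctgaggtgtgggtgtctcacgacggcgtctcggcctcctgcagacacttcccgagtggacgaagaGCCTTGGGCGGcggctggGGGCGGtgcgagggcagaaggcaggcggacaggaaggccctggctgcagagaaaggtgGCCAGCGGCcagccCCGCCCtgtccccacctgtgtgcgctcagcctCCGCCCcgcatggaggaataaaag
Krt8: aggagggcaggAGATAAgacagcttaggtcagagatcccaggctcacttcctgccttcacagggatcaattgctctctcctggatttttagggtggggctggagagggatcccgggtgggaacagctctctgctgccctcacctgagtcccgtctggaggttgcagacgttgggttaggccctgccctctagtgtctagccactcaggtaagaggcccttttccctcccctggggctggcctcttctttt
Krt18: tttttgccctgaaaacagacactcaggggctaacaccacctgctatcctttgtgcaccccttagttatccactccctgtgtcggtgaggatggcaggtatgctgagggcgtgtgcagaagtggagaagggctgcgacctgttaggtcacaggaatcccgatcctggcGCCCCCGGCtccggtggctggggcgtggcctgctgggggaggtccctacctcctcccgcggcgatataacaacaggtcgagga
The Krt7 run held 4 GC boxes, starting 141, 128, 56 and 24 bases before the start, and 2 AP-2 matches, at 146 and 70 bases, of which the first overlaps a GC box. The Krt18 run held 1 AP-2 match, 83 bases before the start, and the Krt8 run 1 Gata match, 239 bases before it. Of all 32851 promoters of this length, 32.7% held a GC box, 13.7% the AP-2 motif, 12.6% the Tead motif, 12.4% the TATA box, 9.99% the Gata motif and 6.75% the AP-1 motif. These matches describe letters, and no binding was measured here.

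The levels below are log2 normalized intensities, and a difference of 1 between groups is a 2-fold change. Between 57.4% and 65.2% of spots were well above background, the scanner software's test that a spot outshines its surroundings, and no 2 arrays were closer than r = 0.978. The groups lay on separate slides, and clones and IVF embryos were scanned on different scanners with different software versions, so slide, scan and group cannot be told apart in any comparison here. Each IVF array held 6790 to 9981 gene spots with a processed intensity below 0, and each clone array 0. The dim end of the scale thus differed between clones and IVF embryos, and its part in the differences of dim probes was not tested. A probe was called changed at a limma p below 0.05 after Benjamini-Hochberg adjustment over all probes. A second threshold, called the study's threshold here, follows the significance level and fold filter of the methods, with p below 0.05 and a difference of at least 2-fold. The methods name no adjustment for multiple tests, and p was taken unadjusted for it. Intensities of different probes are not compared as amounts of RNA, and fewer cells of a type and less RNA per cell cannot be told apart.

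Krt7, a type II keratin of simple and ductal epithelia, was lower in the clones by its level on both probes, and its values were spread widely among them. On the brighter probe, A_51_P312348, the fusion clones were at 10.22, 12.22, 11.18 and 13.62, and the injection clones at 11.55, 11.34, 9.999 and 12.60. The female IVF embryos were at 14.01, 14.21 and 13.80, and the male IVF embryos at 14.97, 14.27 and 14.18. Every clone lay below every IVF embryo of either sex. The second probe, A_52_P410685, lies 4454 bases away in the coordinates of the array files. Its values were 7.60, 9.22, 8.68 and 10.86 in fusion clones and 8.99, 8.46, 7.39 and 9.93 in injection clones. Female embryos were at 11.19, 11.74 and 11.24 on this probe and male embryos at 12.82, 11.36 and 11.68. Again no clone reached the lowest IVF embryo. In intensities before normalization between arrays the brighter probe was at 1039 to 12323 in clones and at 14962 to 27798 in IVF embryos.

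**Figure D1:**
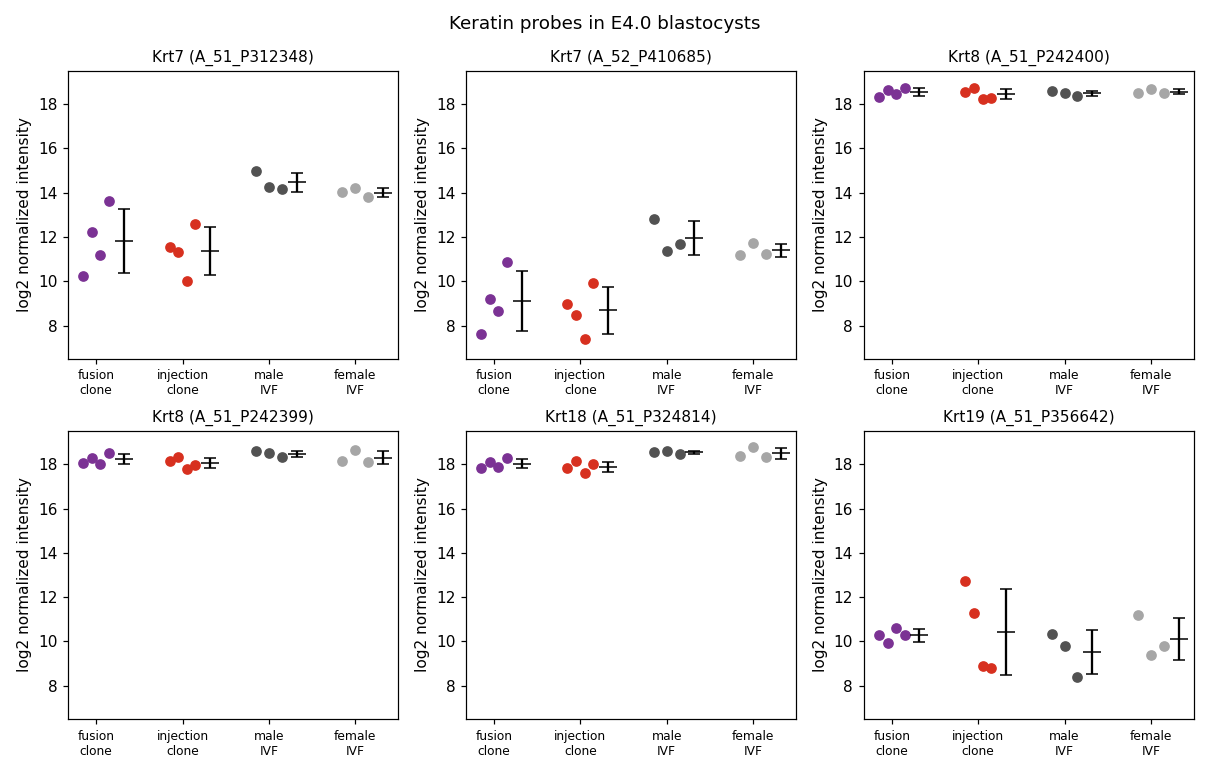
Log2 normalized intensity (vertical axis) of the 6 keratin probes in each array, by group, with 1 point per array and the group mean ± SD as a black bar. Both Krt7 probes are below the IVF embryos in all 8 clones, the Krt8 and Krt18 probes sit near 18 in all groups, and Krt19 ranges from 8.79 to 12.74 among the 4 injection clones.

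Against the female embryos, the fusion clones differed by -2.20 ± 0.77 (log2, SE; 95% interval -4.05 to -0.34) on A_51_P312348 and by -2.30 ± 0.73 (-4.05 to -0.55) on A_52_P410685. The limma adjusted p was 0.129 and 0.101, so Krt7 was not called changed in fusion clones. The injection clones differed by -2.63 ± 0.58 (-4.05 to -1.22) and by -2.70 ± 0.59 (-4.12 to -1.27), with adjusted p of 0.0641 and 0.0621. Krt7 missed the adjusted threshold here as well. Both probes passed the study's threshold in both comparisons, with unadjusted limma p of 0.0270 and 0.0177 in fusion clones and 0.00371 and 0.00341 in injection clones. These differences correspond to 4.58-fold and 4.92-fold lower levels in fusion clones and to 6.21-fold and 6.48-fold lower levels in injection clones. Both comparisons use the same 3 female arrays and are not independent of each other.

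The highest Krt7 levels of the clone groups were on fusion clone 4 and injection clone 4. Without fusion clone 4, the fusion difference was -2.80 and -2.89 with limma adjusted p of 0.0485 and 0.0360, past the threshold. Without injection clone 4, the injection difference was -3.04 and -3.11 with adjusted p of 0.0395 and 0.0379. These arrays were picked by their own Krt7 level, so leaving them out enlarges the difference by construction. Of the 7 arrays left out in turn in each comparison, only this 1 brought Krt7 past the threshold. With both clone groups averaged against the female embryos in a single fit, a setting chosen after seeing the data, Krt7 was at -2.42 (adjusted p = 0.0455) and -2.50 (adjusted p = 0.0348), and 16.6% of all probes were called. In injection clones Krt7 was also called with normexp background correction (adjusted p = 0.0387 and 0.0425), with a stricter filter (0.0372 and 0.0359) and with all 4 groups in 1 fit (0.0440 and 0.0403). The number of keratin probes past the study's threshold in fusion clones, 2 in the full data, was 1 without fusion clone 3, 1 without female embryo 1, 1 without female embryo 3 and 0 without female embryo 2.

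The spread of Krt7 between arrays was wide in the clones. Its SD on A_51_P312348 was 1.46 in fusion clones and 1.07 in injection clones, against 0.21 in female and 0.43 in male IVF embryos. Among probes above background on all 14 arrays, 98.2% had a smaller SD than this probe in fusion clones and 94.3% in injection clones, against 20.8% in female and 47.0% in male embryos. The second probe gave the same order, with SDs of 1.36, 1.06, 0.30 and 0.77 in fusion clones, injection clones, female and male embryos. On that probe 97.6%, 94.2%, 36.4% and 80.8% of probes had a smaller SD in these groups, so the male embryos were nearer to the clones than on the brighter probe. A difference in spread was not tested.

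The level of Krt18, the type I partner of Krt8, was slightly lower in the clones, and the difference was not called. Its single probe, A_51_P324814, was at 17.84, 18.08, 17.87 and 18.27 in fusion clones and at 17.83, 18.13, 17.61 and 18.00 in injection clones. The female embryos were at 18.37, 18.78 and 18.30 and the male embryos at 18.55, 18.60 and 18.48. As for Krt7, no clone overlapped any IVF embryo, although the gap between fusion clone 4 and female embryo 3 was small. The difference from female embryos was -0.47 ± 0.20 (interval -0.96 to 0.01, limma adjusted p = 0.195) in fusion clones and -0.59 ± 0.19 (-1.07 to -0.12, adjusted p = 0.142) in injection clones. Averaged over both clone groups it was -0.53 (adjusted p = 0.0519). Its size rested on the scaling: with 75th percentile scaling it was -0.82 and -0.94, and in the deposited values -0.79 and -0.91, with adjusted p between 0.0589 and 0.115.

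Krt8, the type II keratin that pairs with Krt18, was bright in clones and controls, with small differences that were not called. On the brighter probe, A_51_P242400, the fusion clones were at 18.31, 18.62, 18.46 and 18.72, the injection clones at 18.52, 18.72, 18.24 and 18.26. The female embryos were at 18.49, 18.67 and 18.48 and the male embryos at 18.60, 18.48 and 18.34. All groups overlapped. The second probe, A_51_P242399, which lies 132 bases away in the array coordinates, ranged from 17.79 to 18.51 in clones and from 18.12 to 18.65 in IVF embryos. The difference from female embryos was -0.02 (interval -0.43 to 0.38) and -0.08 (-0.60 to 0.45) in fusion clones, and -0.11 (-0.52 to 0.30) and -0.25 (-0.75 to 0.25) in injection clones, for the brighter and the second probe. On the brighter probe these intervals do not reach the point estimates of Krt7. The interval of the brighter Krt7 probe overlapped that of Krt8 in fusion clones (-4.05 to -0.34) and not in injection clones (-4.05 to -1.22). A difference between the 2 genes was not tested. The lowest limma adjusted p for Krt8 in these comparisons was 0.496. With 75th percentile scaling the differences on the brighter probe were larger, -0.45 and -0.55, and were not called (adjusted p = 0.152 and 0.0704). In the deposited values they were -0.42 and -0.52.

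Before normalization between arrays, the IVF arrays were brighter than the clone arrays on Krt8 and Krt18. The signal of the brighter Krt8 probe was at 30.4% to 44.1% of the scanner's saturation value in clones and at 59.6% to 78.2% in IVF embryos. The second Krt8 probe was at 27.8% to 39.3% and at 48.0% to 76.1%, and Krt18 at 21.1% to 37.2% and at 54.8% to 82.4%. No spot was saturated. In processed intensities the brighter Krt8 probe was at 276542.5 to 367053.9 in clones and at 379811.2 to 508142.6 in IVF embryos, without overlap, whereas the groups overlapped after normalization. Krt7 reached at most 3.95% of the saturation value and Krt19 0.883%. The part of this brightness in the Krt8 and Krt18 differences was not tested.

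Krt19, a type I keratin without the tail domain of other keratins, differed from the controls by less than the spread between arrays. Its single probe, A_51_P356642, was at 10.28, 9.92, 10.62 and 10.27 in fusion clones. In injection clones it was at 12.74, 11.29, 8.91 and 8.79, so clones 1 and 2 lay above and clones 3 and 4 below every fusion clone. The female embryos were at 11.20, 9.37 and 9.81 and the male embryos at 10.34, 9.81 and 8.41, and all groups overlapped. The difference from female embryos was 0.15 (interval -0.93 to 1.23, limma adjusted p = 0.845) in fusion clones and 0.31 (-2.38 to 2.997, adjusted p = 0.886) in injection clones. The SD of 1.93 among injection clones exceeded that of 99.4% of probes above background on all arrays, against 0.29 among fusion clones, which 45.6% of probes fell below. Leaving out a single array turned the sign of the Krt19 difference in both comparisons, from -0.23 to 0.68 in fusion clones and from -0.46 to 0.86 in injection clones over the arrays left out.

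**Figure D2:**
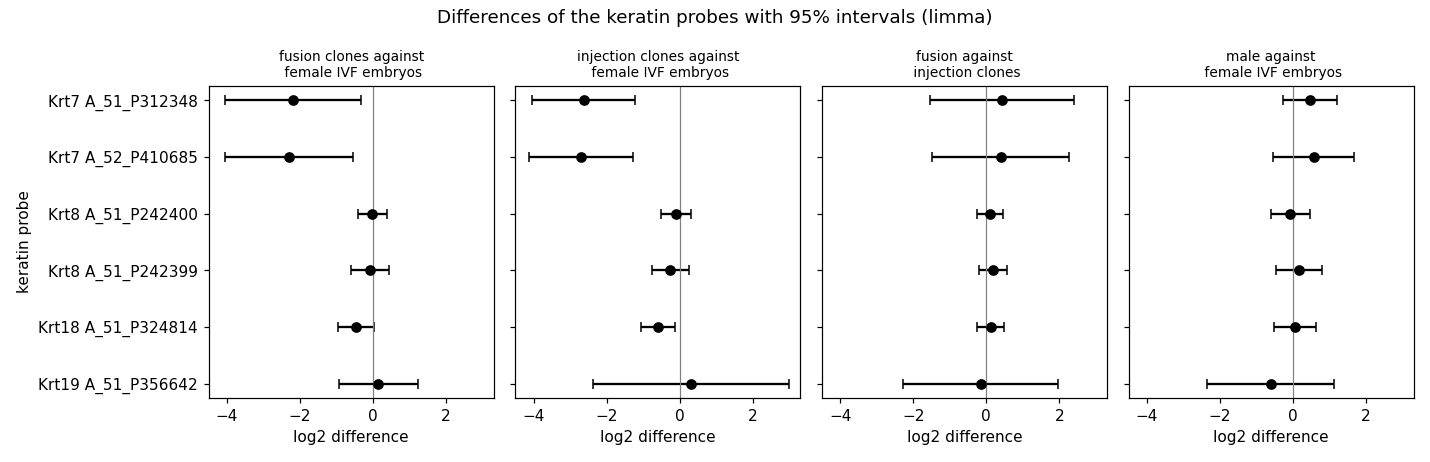
Log2 difference between groups (horizontal axis, first group minus second) for each keratin probe, with the 95% interval from limma, in the 4 comparisons. Krt7 lies below 0 with its whole interval in both comparisons of clones with female embryos, and in neither of the other comparisons.

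Over the 6 keratin probes, limma called 0 in fusion clones and 0 in injection clones against female embryos, where 9.50% and 3.67% of all probes were called. At an unadjusted p below 0.05, 2 probes in fusion clones and 3 in injection clones passed, where 27.2% and 23.2% of all probes did. At the study's threshold 2 probes passed in each, the Krt7 probes, both lower, against 8.60% and 7.09% of all probes in that direction. Groups did not overlap for 3 probes in each, the Krt7 probes and Krt18, against 25.7% and 20.8% of all probes. Levels lower in all 8 clones than in all 6 IVF embryos were found for 3 of the 6 probes, against 4.05% of the probes detected on any array. The probes were too few for a test of these shares.

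Between fusion and injection clones, which differ in how the nucleus was introduced, no keratin difference exceeded the spread between arrays. Limma called 0 of 6 probes and 0 passed at an unadjusted p below 0.05, where 0.00% and 6.17% of all probes did, and 0 passed the study's threshold, where 2.38% did. The Krt7 difference was 0.44 (interval -1.53 to 2.41, adjusted p = 0.907) and 0.40 (-1.48 to 2.28, adjusted p = 0.911), so a difference of either sign of over 2-fold is not excluded. Krt18 differed by 0.12 (-0.24 to 0.49), Krt8 by 0.09 (-0.26 to 0.45) and 0.18 (-0.20 to 0.56), and Krt19 by -0.16 (-2.28 to 1.96). The sign of the Krt7 difference turned without fusion clone 4 (-0.16 and -0.19) and without injection clone 3 (-0.02 and -0.03).

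Between male and female IVF embryos the keratin differences were also within the spread. Male minus female, Krt7 differed by 0.47 (interval -0.29 to 1.22) and 0.56 (-0.55 to 1.67), Krt18 by 0.06 (-0.52 to 0.64), Krt8 by -0.07 (-0.59 to 0.45) and 0.16 (-0.46 to 0.79), and Krt19 by -0.61 (-2.34 to 1.13). No probe was called or passed at an unadjusted p below 0.05 (0 of 6), where 0.0594% and 7.77% of all probes did in limma, and 0 passed the study's threshold, where 5.80% did. With same-numbered male and female arrays paired, the keratin differences were the same, 0 keratin probes were called (limma adjusted p from 0.689 to 0.938), and 0 of all probes were called, against 19 without pairing. The male array was higher in 3 of 3 pairs on Krt7 A_51_P312348 and in 2 of 3 on A_52_P410685. The point estimates for Krt7 were opposite in sign to those of the clones.

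The probes of a gene followed each other from array to array. Over the 14 arrays the Krt7 probes had a Pearson r of 0.992, and 0.973 after subtracting group means, so that the high and low clones were the same on both. The Krt8 probes had r = 0.746, and 0.884 after subtracting group means. These correlations are descriptions of paired probes on the same arrays.

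**Figure D3:**
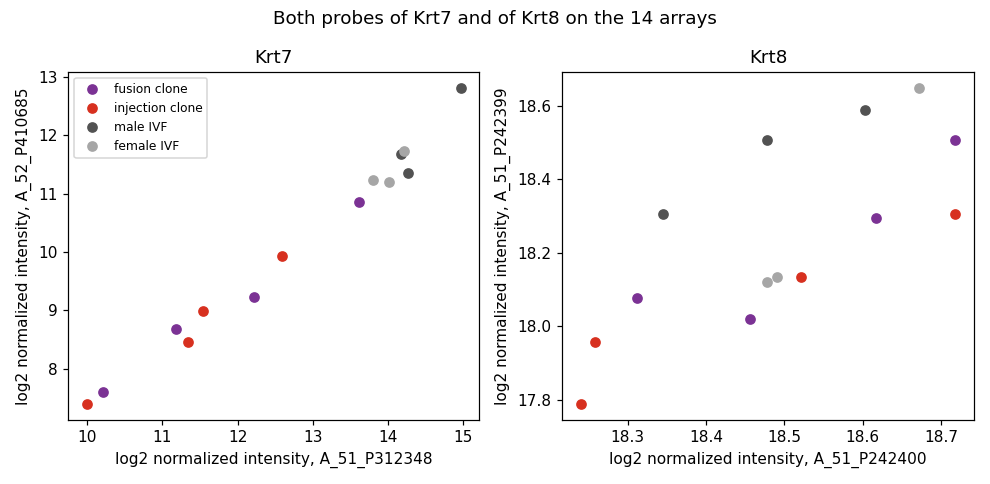
Log2 normalized intensity of one probe against the other, for Krt7 (left) and Krt8 (right), with 1 point per array in the colours of the 4 groups. The Krt7 points lie along a line from the clones to the IVF embryos (r = 0.992), and the Krt8 points are spread over less than 1 unit (r = 0.746).

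Relations between the keratins were computed within the 8 clones and within the 6 IVF embryos, since the clones and controls lay apart for Krt7. Of 12 relations none passed after Benjamini-Hochberg adjustment of an exact permutation test (two-sided). The strongest was Krt7 with Krt18 in clones, r = 0.84 (exact permutation p = 0.0103, adjusted p = 0.123) with rho = 0.71 (exact permutation p = 0.0576, adjusted p = 0.346). Without the 2 clones farthest from the median of Krt7 it was 0.51 (exact permutation p = 0.293). Leaving out the ends of the Krt7 range tends to lower r by construction, so this value cannot show that the relation rests on those arrays. Krt8 with Krt18 in clones had r = 0.78 (exact permutation p = 0.0240, adjusted p = 0.144) and rho = 0.76 (exact permutation p = 0.0368, adjusted p = 0.346), and without the 2 farthest clones 0.87 (exact permutation p = 0.0278, adjusted p = 0.333). In IVF embryos Krt8 and Krt18 had r = 0.61 (exact permutation p = 0.196). Krt19 had an r of -0.01 with Krt7 and of 0.11 with Krt18 in clones. With 75th percentile scaling Krt7 with Krt8 in clones was at 0.83 and with Krt18 at 0.89 (exact permutation, adjusted p = 0.0292 each).

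The genes closest to each keratin were those with the highest Pearson r over the 14 arrays after subtracting group means, among 10693 genes whose brightest probe was above background on all 14 arrays. Krt7 was nearest to Erfe (r = 0.96), Myo9b (0.95) and Mastl (0.88). Krt8 was nearest to Capg (0.90), Urgcp (0.89) and Acer1 (0.88). Krt18 was nearest to Aldh2 (0.93), Sidt2 (0.91) and 5730416F02Rik (0.87), and Krt19 to Ndufb6 (0.89), Esd (0.88) and Ctif (0.88). Krt18 came at place 79 for Krt8 (r = 0.75) and at place 119 for Krt7 (r = 0.71), behind many other genes. These places describe 14 arrays and carry no test.

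The remaining keratins were mostly dim. Of 22 other type II keratins, 16 had a probe, and 9 were tested against female embryos in fusion clones and 10 in injection clones. In either comparison 0 were called, where 9.50% and 3.67% of all probes were. Among them Krt5, the basal keratin, was above background on all 14 arrays, at -0.89 (limma adjusted p = 0.0580) in fusion clones. Of 25 other type I keratins, 22 had a probe. In fusion clones 17 were tested and 0 were called, where 9.50% of all probes were, with a median difference of -0.42, against -0.12 over all probes. In injection clones 16 were tested and 1 fell, where 3.67% of all probes were called, with a median of -0.74 against -0.08. Both medians rest on genes at the floor, such as Krt33a in fusion and Krt31 in injection clones, and have no measured size. The gene that fell was Krt36, a hair keratin. It was not well above background on any injection clone, and was at least 2.16-fold lower there than in female embryos (limma adjusted p = 0.0183). Every injection clone was at the floor, so these clones add no spread of their own to this p. Krt36 was above background on none of the male embryos either (-1.11 against female embryos, adjusted p = 0.333), and its second probe was above background on no array of these groups. A bound of this kind compares the bright group's mean with the lowest signal above background on the dim arrays, which here lay at the floor of 16 set on all intensities.

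Krt10, Krt13, Krt14, Krt16, Krt17 and Krt28 were above background on all 14 arrays, and their differences from female embryos went both ways without being called. Krt10, a keratin of differentiating epidermis, was at 1.09 (limma adjusted p = 0.257) in fusion clones and 1.24 (0.244) in injection clones. Krt13, a keratin of stratified mucosa, was at -1.15 (adjusted p = 0.0867) and -1.38 (adjusted p = 0.0880). Krt14, the partner of Krt5, was at -1.56 (adjusted p = 0.0523) and -0.46 (0.743). Krt28 was at -1.53 and -1.63, Krt17 at -0.51 and -0.27, and Krt16 at -0.10 and 0.03. Krt23 was above background on 2 of 4 arrays in each clone group and reached the floor in both, so its difference has no measured size. In fusion clones Krt13, Krt14 and Krt23 passed the study's threshold in the lower direction, where 8.60% of all probes did. In injection clones Krt13 and Krt36 passed it in that direction, where 7.09% of all probes did.

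Desmosomes are the junctions to which keratin filaments attach. Of 11 desmosome genes tested in each comparison, 1 fell in fusion clones and 0 in injection clones, where 9.50% and 3.67% of all probes were called. The one was Pkp2, a plakophilin that binds keratin filaments to the junction, at 14.61, 14.65, 14.40 and 14.57 in fusion clones against 15.19, 15.40 and 15.19 in female embryos, a difference of -0.70 (limma adjusted p = 0.0398). In injection clones it differed by -0.66 (adjusted p = 0.162). Dsp, the plakin of the desmosome, was at -0.11 (0.723) and -0.35 (0.230), and Dsg2, the desmosomal cadherin of simple epithelia, at -0.13 (0.714) and -0.44 (0.299). Other plakophilins were at higher levels without being called, Pkp3 at 1.31 (adjusted p = 0.157) and 1.20 (0.138) and Pkp4 at 0.99 (0.0998) and 1.18 (0.0841). At the study's threshold 1 desmosome gene was higher and 0 lower in fusion clones, and 2 were higher and 1 lower in injection clones. Of all probes 8.60% and 7.09% passed it in the lower direction, and 49.6% and 49.4% of the probes past it were higher. The lower gene was Dsg3, above background on 1 injection clone and 2 female arrays and at the floor in both groups, so its difference has no measured size. Of 9 plakin and hemidesmosome genes tested, 1 rose in each comparison, against the same 9.50% and 3.67% of all probes called. This was Evpl (envoplakin, a plakin of the cornified envelope), at 8.90, 8.93, 8.23 and 8.73 in fusion clones and 8.86, 9.98, 8.88 and 9.39 in injection clones against 7.44, 7.34 and 7.29 in female embryos. It was higher by 1.34 (limma adjusted p = 0.0193) and by 1.92 (adjusted p = 0.0359). A second Evpl probe was at 1.81 and 1.52 without being called (adjusted p = 0.100 and 0.128).

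Among 15 other intermediate filament genes, 3 fell in fusion clones and 2 in injection clones, where 9.50% and 3.67% of all probes were called. Vim, the filament of mesenchyme and of parietal endoderm, was at -5.50 (limma adjusted p = 0.0403) in fusion clones, with 1 array at the floor, and at -4.92 (adjusted p = 0.0146) in injection clones. The male embryos were at 12.27, 7.90 and 12.01. Male embryo 2 thus lay below fusion clone 1 (9.19) and injection clone 3 (8.03). A second Vim probe was above background on 1 of the injection clones and on no other array of these groups. Nefl, the light neurofilament, was at 4, 6.12, 8.32 and 4 in fusion clones and at the floor of 4 on every injection clone, against 12.42, 12.45 and 12.88 in female embryos (limma adjusted p = 0.0174 and 4.25e-05). A second Nefl probe was above background on 1 array of each clone group and on 3 of 3 female arrays, and was called lower too (adjusted p = 0.00102 and 0.0129). With so many clone arrays at the floor, no fold is given for Nefl. On the brighter probe the injection clones add no spread of their own to the p. The male embryos were at 10.97, 12.14 and 13.54 on that probe, above every clone. Lmnb2, a nuclear lamin, was at -0.80 (limma adjusted p = 0.0470) in fusion clones, while its other probe was at -0.43 (adjusted p = 0.584). On the called probe the fusion clones, at 12.10 to 12.53, overlapped the male embryos, at 12.35 to 12.63.

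Of 13 trophectoderm transcription factors tested, 1 fell in each comparison, where 9.50% and 3.67% of all probes were called. In fusion clones this was Elf5, a factor of the trophoblast stem state, at -2.96 (limma adjusted p = 0.0160), with 10.33, 10.31, 11.16 and 11.18 against 13.11, 13.39 and 14.60 in female embryos. In injection clones Elf5 was at -3.65 (adjusted p = 0.0663). In injection clones Id2, an inhibitor of helix-loop-helix factors that marks trophectoderm, was at -1.12 (limma adjusted p = 0.0396), and in fusion clones at -0.70 (adjusted p = 0.0833). A second Id2 probe was at -1.47 (adjusted p = 0.0467) in injection and -1.06 (adjusted p = 0.0504) in fusion clones. Cdx2, the master factor of trophectoderm, was at -0.36 (adjusted p = 0.277) and -0.53 (0.274). Gata3 was at 0.31 (0.253) and 0.39 (0.409), and Tfap2c at 0.01 (0.983) and 0.02 (0.968). Hand1 had the largest rise of the list, at 2.88 (0.258) and 3.34 (0.347). It was above background on 4 fusion clones, 3 injection clones and 1 female array, with injection and female arrays at the floor. Klf5 was at 0.93 (0.175) and 0.50 (0.493), and Tfap2a at -1.04 (0.123) and -0.53 (0.236). At the study's threshold 2 factors were lower and 0 higher in each comparison. These were Elf5 and Tfap2a in fusion clones and Elf5 and Id2 in injection clones. Of all probes 8.60% and 7.09% passed it in the lower direction. Cdx2 and Gata3, defining markers of trophectoderm, were above background on every array of these groups. The difference in Krt7 and that in Elf5 lie in the same clones, and their relation was not tested.

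**Figure D4:**
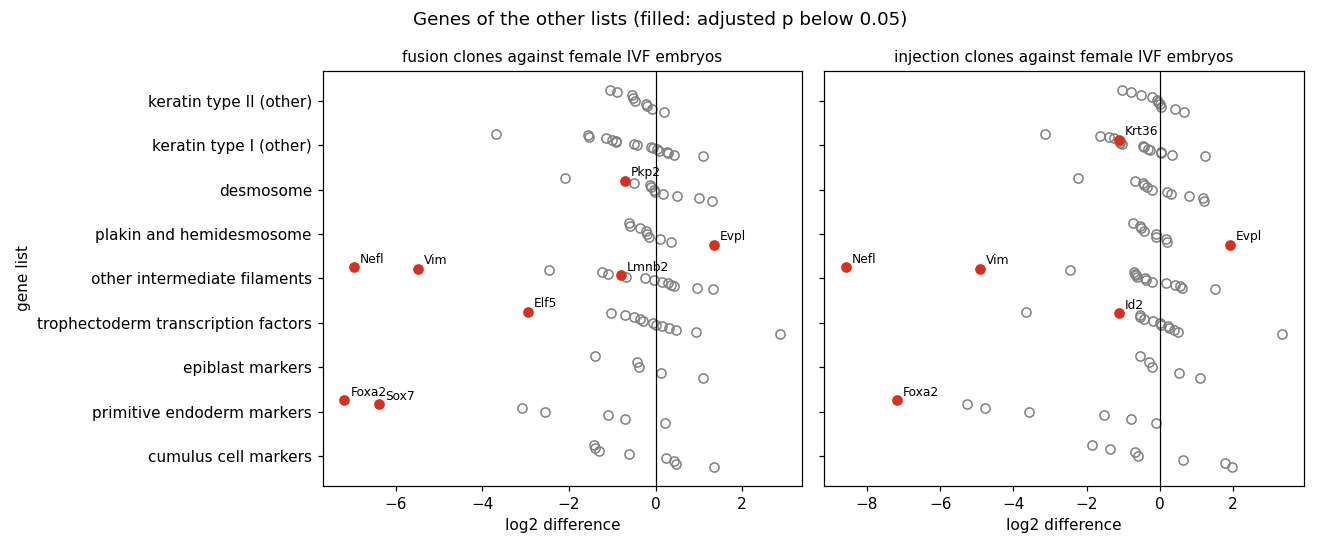
Log2 difference (horizontal axis) of each tested gene of the other lists, for fusion clones (left) and injection clones (right) against female IVF embryos, with 1 circle per gene and filled red circles for a limma adjusted p below 0.05. Few genes are called in each list, and Foxa2 and Nefl lie furthest below 0 in both panels (for genes not above background in a group, the position is a floor, not a measured fold).

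Markers of the other cells of a blastocyst were read beside the keratins. Of 5 epiblast markers tested 0 were called in either comparison by limma, where 9.50% and 3.67% of all probes were. Their summed normalized intensity was 29136 to 40324 in fusion clones and 27199 to 54124 in injection clones. It was 33821 to 41234 in male and 30561 to 49689 in female embryos. A sum of this kind follows its brightest probes, here Pou5f1 and Nanog, and is no amount of RNA. Of 7 primitive endoderm markers, 2 fell in fusion clones, Sox7 and Foxa2, and 1 fell in injection clones, Foxa2 (limma adjusted p = 8.96e-05), where 9.50% and 3.67% of all probes were called. Sox7 was at 6.43, 5.86, 4.11 and 4 in fusion clones, the last at the floor, against 12.46, 9.40 and 12.60 in female embryos (adjusted p = 0.0180). The male embryos were at 9.40, 4 and 12.21 on Sox7, so male embryo 2 was at the floor as well. A second Sox7 probe was above background on no fusion clone and on 1 female array, at -0.79 (adjusted p = 0.443). Foxa2 was above background on no fusion clone and on 1 injection clone and was at least 146-fold lower than in female embryos in fusion clones (adjusted p = 8.34e-05). Every clone value of Foxa2 was at the floor, so the clones add no spread of their own to its p-values. The male embryos were at 9.93 to 11.12 on Foxa2. The sum over the 7 markers was 160587 to 239640 in fusion clones and 143458 to 200486 in injection clones. It was 168892 to 277987 in male and 222787 to 279520 in female embryos. This sum follows the brightest probes, Gata6 and Dab2, and does not show the dimmer markers. The median difference of the 7 markers from female embryos was -2.54 in fusion and -3.57 in injection clones. Each of these medians is the value of Gata4, which was not called (limma adjusted p = 0.202 and 0.0643). Gata4 reached the floor in both clone groups, so these medians have no measured size. Over all probes the median difference was -0.12 and -0.08. The part of these markers in the Krt7 result was not tested.

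Markers of cumulus cells, the donor type of the clones, were mostly dim. Of 12 markers, 8 were tested in fusion clones and 7 in injection clones, and 0 were called, where 9.50% and 3.67% of all probes were. Has2 and Ptx3 were each above background on 1 of the 14 arrays, and Lhcgr on none. The sum over the 12 genes was 1147 to 2809 in fusion clones and 1716 to 2652 in injection clones. It was 932 to 2397 in male and 1085 to 1132 in female embryos. This sum follows its brightest probes, of which Amhr2 had the highest mean in each group. The 2 markers above background on all 14 arrays went opposite ways, and neither was called. Amhr2, the receptor for anti-Mullerian hormone, was at log2 levels of 9.82 to 11.31 in fusion clones, 10.49 to 11.20 in injection clones, 8.11 to 9.37 in male and 7.97 to 9.58 in female embryos. Foxl2, a granulosa cell transcription factor, was at 5.29 to 5.98, 5.46 to 5.76, 6.12 to 7.04 and 6.18 to 6.45 in the same groups. Amhr2 was thus higher and Foxl2 lower in every clone than in every IVF embryo. Of the probes detected on any array 4.05% were lower in this way, and the share that was higher was not counted. Cyp19a1, above background on 11 of 14 arrays, ranged from 4.43 to 5.25 in fusion and from 4.38 to 9.09 in injection clones. It reached at most 4.67 in male and 5.07 in female embryos and was not called (limma adjusted p = 0.618 and 0.429). Against female embryos Amhr2 differed by 1.35 (limma adjusted p = 0.165) and 1.77 (0.0838), and Foxl2 by -0.61 (0.121) and -0.66 (0.0636), in fusion and injection clones. Their part in the Krt7 result was not tested.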

How the data were processed

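RNA from E4.0 blastocysts was amplified in 2 rounds, labelled with Cy3 and read on 1-colour Agilent arrays covering the mouse genome. The authors deposited 1 scanner file per array, with background-subtracted intensity per spot, from Agilent Feature Extraction 10.5.1 per the labels, whereas the file headers name 10.5.1.1 for clones and 9.5.3.1 for IVF embryos. A table of log2 values, shifted per array and centred per probe by the authors in steps not given in the sources used here, was deposited too and served as an alternative.

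Processed intensities of gene probes were quantile-normalized over the 14 arrays, with outlier spots set missing, a floor of 16 and log2, and averaged per probe. A comparison tested the probes that outshone their background on 1 array or more of its groups, with limma 3.58.1 in R 4.3.3, fitted to each pair of groups, with p adjusted over all probes. The fits were tested on simulated data. Gene names came from the array files, with 32734 of 41174 gene probes matched to RefSeq. Figures and exact tests used Python 3.11.15, SciPy 1.17.1 and matplotlib 3.10.9. The number of arrays limits the precision. The members and gene lists were chosen with earlier results of these data known. Every keratin probe is given, a gene being represented by its brightest probe, and of each list at most the 3 largest rises and 3 largest falls among called genes above background in each group, plus genes that account for a count of 5 or fewer. Other list genes named (Krt5, Krt10, Krt13, Krt14, Krt16, Krt17, Krt23, Krt28, Krt31, Krt33a, Dsp, Dsg2, Pkp3, Pkp4, Cdx2, Gata3, Tfap2c, Hand1, Klf5, Tfap2a, Pou5f1, Nanog, Gata6, Gata4, Dab2, Has2, Ptx3, Lhcgr, Amhr2, Foxl2 and Cyp19a1) were chosen after their values were seen. Male and female arrays that share a number moved together (r = 0.146, 0.172 and 0.171 between their deviations from the group means). A fit that pairs them by number is therefore given beside the unpaired fit, from which the intervals come. This pairing is read from the data only, since no label states it. Same-numbered fusion and injection arrays had r of -0.005, -0.07, 0.17 and -0.05 and were not paired. Alternatives covered background correction, scaling, floor, filter, samples in the fit, variance trend, replicate block, outlier spots and leaving out each array.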

Additional observations from a re-analysis of the deposited data

How the results depend on the processing

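The sign of the Krt7 and Krt18 differences from female embryos held under every alternative tried. The call on Krt7 did not. In injection clones, 0 keratin probes were called by limma in the fit reported, 2 with normexp background correction (Krt7 A_51_P312348 at -2.69), 2 with a stricter filter, 2 with all 4 groups in 1 fit and 1 with a variance trend (Krt7 at -2.63 in each of these 3). With both clone groups averaged, chosen after seeing the data, 2 were called (Krt7 at -2.42), among 5670 probes in all. Leaving out single arrays gave 0 to 2 called keratin probes in fusion and in injection clones, 0 to 2 past the study's threshold in fusion clones, and a Krt7 difference on the brighter probe of -2.80 to -1.66 and of -3.04 to -2.18. The cause was not tested, except that averaging the clone groups adds arrays.

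Small differences changed sign. Between fusion and injection clones, Krt8 on the brighter probe was -0.016 with normexp. Between male and female embryos it was 0.17 with 75th percentile scaling and 0.17 in the deposited values. Leaving out single arrays turned the following. In fusion clones against female embryos Krt8 ranged from -0.085 to 0.050 (second probe -0.17 to 0.10) and Krt19 from -0.23 to 0.68. In injection clones Krt19 ranged from -0.46 to 0.86. Between fusion and injection clones Krt7 ranged from -0.16 to 0.97 (second probe -0.19 to 0.89) and Krt19 from -0.71 to 0.61. Between male and female embryos Krt18 ranged from -0.034 to 0.20.

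Relations between keratins depended on the scaling. With 75th percentile scaling and in the deposited values, r in clones was 0.83 and 0.79 for Krt7 with Krt8, 0.89 and 0.88 for Krt7 with Krt18, 0.86 and 0.86 for Krt8 with Krt18, and -0.12 and -0.079 for Krt18 with Krt19. In IVF embryos it was 0.77 and 0.76 for Krt7 with Krt18. Without the 2 arrays farthest from the median of the first gene, r was -0.65 for Krt7 with Krt19 in IVF embryos and -0.31 for Krt18 with Krt19 in clones.

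Counts over all probes moved more. Injection clones against female embryos, 1204 probes called, gave 629 in the deposited values, 598 with a floor of 1, 1931 with the stricter filter, 772 with no filter and 3095 with all 4 groups in 1 fit. Fusion against injection clones, 0 called and 769 past the study's threshold, gave 463 past it with normexp, 2 called and 1279 past it in the deposited values, 11 and 1311 with a floor of 1, and 1 called with all 4 groups in 1 fit. Male against female embryos, 19 and 1854, gave 7 called with normexp, 151 and 2833 in the deposited values, 103 and 2897 with a floor of 1, 1227 past the threshold with a floor of 32, 58 called with the stricter filter, 34 with no filter, 205 and 2830 with all 4 groups in 1 fit and 3 with a variance trend. Leaving out single arrays gave 1126 to 2778 calls (3078 in full) in fusion clones, 160 to 1039 in injection clones, 0 to 2 between the clone groups and 1 to 15 between the sexes. Higher probes made up 45.5% and 41.7% of calls in fusion and injection clones, against 62.5% and 64.1% in the deposited values.

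With the replicate number as a block, 0 probes were called in either comparison of clones with female embryos or between the sexes, and Krt7 was at -2.80 (limma adjusted p = 0.138) and -3.04 (adjusted p = 0.163). The number 4 occurs only among clones, so the block takes clone 4 out of these differences, which equal those without clone 4. The block also leaves less to estimate the spread from, so the absence of calls in this fit cannot decide whether the groups differ. This replicate block changed no keratin call. Same-numbered fusion and female arrays deviated with r of 0.10, 0.05 and -0.02 and injection and female arrays with -0.05, -0.04 and -0.12, so they share only a number.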
